A study of Mus musculus with 12 samples.

Results

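Usp17la, Usp17lb, Usp17lc, Usp17ld, Usp17le, Tcstv1, Tcstv3, Zfp352, Gm2022 and Gm5662 are genes of the 2-cell-like state of mouse embryonic stem cells (mESCs). They were taken by symbol from a list of 10 members, and all 10 had a row among the 23412 genes counted. They are described singly and as 4 families, namely the 5 Usp17l genes, the Tcstv pair, the pair Gm2022 and Gm5662, and Zfp352. Bulk RNA-Seq covered 12 libraries of v6.5 mESCs, a male line grown on gelatin in serum with LIF, 3 replicates of each of 4 genotypes. The genotypes were WT, Hmgn1-/- (exon 3 of Hmgn1 short of 1 bp on both alleles), Hmgn2-/- (exon 4 of Hmgn2 with 1 bp too many on both alleles) and Hmgn1-/-Hmgn2-/-. Hmgn1 and Hmgn2 encode nucleosome-binding proteins, and the comparisons ask how RNA levels differ without either or both. Each knockout line grew from a single edited cell, so that genotype and clone cannot be told apart. For the double knockout, Hmgn1 was edited in cells of the Hmgn2-/- line. Total counts per library were 31448468, 17614490 and 28524108 in WT, 25953244, 21059862 and 21993042 in Hmgn1-/-, 25908890, 26486535 and 17337908 in Hmgn2-/-, and 31005479, 22151507 and 26410485 in Hmgn1-/-Hmgn2-/- mESCs.

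The mouse embryo switches on its own genome at the 2-cell stage, and a burst of genes is read then and silenced soon after. In cultures of mESCs a few cells at a time re-enter a state in which the same genes are read again, and they leave it within days. Many of these genes lie in clusters of young copies, and many are read from long terminal repeats of the endogenous retrovirus MERVL, whose own RNA was not analysed here. In bulk RNA, fewer cells in this state and less RNA per cell cannot be told apart.

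The labels were first checked on the edited genes. Hmgn1 stood at 622.4 ± 35.1 TMM-scaled CPM (mean ± SD, n = 3) in WT, 139.8 ± 1.77 in Hmgn1-/-, 580.7 ± 51.4 in Hmgn2-/- and 21.0 ± 0.929 in Hmgn1-/-Hmgn2-/- mESCs. In the order of replicates 1 to 3, its CPM were 661, 594 and 612 in WT, 138, 139 and 142 in Hmgn1-/-, 546, 556 and 640 in Hmgn2-/-, and 21.6, 19.9 and 21.5 in the double knockout. Hmgn2 CPM were 137, 121 and 119 in WT, 106, 113 and 109 in Hmgn1-/-, 50.9, 54.5 and 53.7 in Hmgn2-/-, and 53.9, 50.5 and 54.5 in the double knockout. Every library thus had its edited gene below all WT libraries. Of 10 pluripotency genes, which identify the labelled cells, all 10 were tested, with a summed level of 7020 ± 110 CPM in WT and 7366 ± 249, 7225 ± 600 and 7032 ± 384 CPM in Hmgn1-/-, Hmgn2-/- and Hmgn1-/-Hmgn2-/- mESCs. By edgeR's quasi-likelihood test 0 of the 10 passed the adjusted p and fold limits given below in any comparison with WT, with 5, 5 and 6 at an unadjusted p under 0.05 and 0 by DESeq2. Within the fold limit they moved both ways. Klf4 stood at 125 CPM in WT and 240, 202 and 211 CPM in the knockouts, Esrrb at 399 and 555, 498 and 486 CPM, and Nanog at 256 and 206, 181 and 188 CPM. Their most abundant gene was Pou5f1, at 1966 CPM in WT.

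A single library stood apart. Replicate 3 of Hmgn2-/-, the smallest library, differed from replicates 1 and 2 of its genotype by a chi-square per degree of freedom of 34.3 and 19.5, while replicates 1 and 2 differed by 7.75. No other pair of replicates of a genotype exceeded 11.5. The main results on Hmgn2-/- are therefore also given without it.

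The 5 Usp17l genes encode deubiquitinating enzymes, which remove ubiquitin from proteins, and lie on chromosome 7 within chr7:103249737-104862667 (GRCm38). Their coding sequences were 90.5% to 98.4% identical in pairs, with Usp17lc and Usp17ld the closest. The RefSeq promoter table for GRCm38.p6 (250 bases before to 50 after each annotated start) held 5 of the 10 genes, namely Usp17la, Usp17lb, Usp17lc, Usp17ld and Zfp352. The other 5 are only named. No link between letters and RNA levels was tested, and Zfp352 was lower than WT in each knockout, as were the Usp17l genes. The 4 Usp17l stretches of 130 bases are shown because their letters are nearly the same, and the Zfp352 stretch because its letters differ. Each ends in the TATA-like letters in capitals, lies outside annotated exons and is written 5′ to 3′ on the strand of the gene.
Usp17la: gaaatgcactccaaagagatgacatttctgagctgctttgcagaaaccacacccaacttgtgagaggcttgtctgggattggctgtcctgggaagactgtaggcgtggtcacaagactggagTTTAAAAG
Usp17lb: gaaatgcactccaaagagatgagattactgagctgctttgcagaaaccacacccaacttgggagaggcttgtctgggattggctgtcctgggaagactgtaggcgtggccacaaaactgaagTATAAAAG
Usp17lc: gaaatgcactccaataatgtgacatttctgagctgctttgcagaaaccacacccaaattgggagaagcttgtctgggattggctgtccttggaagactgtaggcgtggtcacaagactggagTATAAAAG
Usp17ld: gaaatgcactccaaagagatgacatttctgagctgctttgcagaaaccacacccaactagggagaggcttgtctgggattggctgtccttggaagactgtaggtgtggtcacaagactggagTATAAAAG
Zfp352: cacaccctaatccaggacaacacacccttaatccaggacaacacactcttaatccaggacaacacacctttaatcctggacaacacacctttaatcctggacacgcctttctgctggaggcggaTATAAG
The stretches lie at chr7:104856848-104856977 (plus strand, Usp17la), chr7:104842607-104842736 (minus strand, Usp17lb), chr7:103416486-103416615 (plus strand, Usp17lc), chr7:103252608-103252737 (minus strand, Usp17ld) and chr4:90218668-90218797 (plus strand, Zfp352). All 4 Usp17l stretches had the same base at 114 of 130 positions, 87.7%, and pairs were 90.8% (Usp17lb and Usp17lc) to 96.2% (Usp17la and Usp17ld) identical.

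In these promoters of 300 bases, short letters were searched on both strands and counted in all 32851 promoters of the table. The letters TGCACAC, bound by ZSCAN4, were in 0 of the 5 promoters and in 4.40% of all promoters. The letters GATTNAATC, the core of a palindrome bound by DUX, were in 0 of the 5 and in 0.268% of all. The letters TATAAA, added after the sequences were seen, were on the gene's strand in 3 of the 5 (Usp17lb, Usp17lc and Usp17ld) and in 8.32% of all promoters, or 13.6% on either strand. The Zfp352 promoter held 9 copies of ACAACACAC in the 250 bases before its start, spaced by 20 to 21 bases. These letters, also chosen after the sequence was seen, were in 35 promoters (0.107%), and 1 promoter held 3 or more copies. A match describes letters only, and no match says only that these letters are not in this window.

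Near-identical copies limit what each row can show, because how reads with several matches were counted is not stated. The share of 100-base windows of a gene's transcripts found identically in another gene was 39.5% for Usp17ld, 32.3% for Usp17lc, 10.3% for Usp17lb, 8.22% for Usp17le and 3.83% for Usp17la. It was 7.79% for Tcstv3, 3.58% for Tcstv1 and 0.643% for Zfp352. The highest shares were those of Gm2022 and Gm5662, 66.7% and 58.4%. The split of counts between Usp17lc and Usp17ld, and between Gm2022, Gm5662 and their copies, is therefore uncertain, and family sums are given beside single genes.

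Among the Usp17l genes, Usp17le had 97, 78 and 90 counts in replicates 1 to 3 of WT, 10, 7 and 2 in Hmgn1-/-, 11, 7 and 7 in Hmgn2-/-, and 28, 23 and 9 in Hmgn1-/-Hmgn2-/- mESCs. Usp17lb had 121, 64 and 63 counts in WT, 3, 5 and 0 in Hmgn1-/-, 7, 1 and 6 in Hmgn2-/-, and 20, 24 and 17 in the double knockout. For both genes every WT library was above every knockout library. The double knockout was above both single knockouts for Usp17lb, while for Usp17le its replicate 3 fell within their range. Usp17lc had 47, 38 and 44 counts in WT, 3, 2 and 0 in Hmgn1-/-, 5, 4 and 3 in Hmgn2-/-, and 19, 9 and 12 in the double knockout. Usp17la had 54, 27 and 45 counts in WT, 2, 3 and 1 in Hmgn1-/-, 1, 6 and 5 in Hmgn2-/-, and 12, 11 and 11 in the double knockout. Both formed the same steps, with WT highest, the double knockout between and the single knockouts lowest, without overlap between these 3 tiers. Usp17ld, the least abundant, had 29, 12 and 7 counts in WT, 5, 0 and 0 in Hmgn1-/-, 2, 1 and 0 in Hmgn2-/-, and 4, 2 and 3 in the double knockout. Its WT libraries were above the others in CPM, but Hmgn1-/- overlapped the double knockout. Summed, the family stood at 10.6 ± 1.84 CPM (mean ± SD, n = 3) in WT, 0.611 ± 0.412 in Hmgn1-/-, 0.990 ± 0.265 in Hmgn2-/- and 2.59 ± 0.570 in Hmgn1-/-Hmgn2-/- mESCs. That left 5.78%, 9.35% and 24.4% of the WT level. The single knockouts overlapped each other, and the double knockout exceeded both without overlap.

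Tcstv1 and Tcstv3 belong to the variable group of the 2-cell stage, genes for small proteins reported to lengthen telomeres in mESCs. They mark the ends of a stretch of 0.425 Mb on chromosome 13, chr13:119893388-120318178, and their coding sequences were 94.7% identical. Tcstv3 had 32, 40 and 27 counts in WT, 2, 2 and 0 in Hmgn1-/-, 0, 0 and 2 in Hmgn2-/-, and 15, 4 and 7 in Hmgn1-/-Hmgn2-/- mESCs. Tcstv1 had 22, 13 and 16 counts in WT, 1, 1 and 2 in Hmgn1-/-, 0, 0 and 0 in Hmgn2-/-, and 4, 3 and 2 in the double knockout. Tcstv1 was the only one of the 10 genes with 0 counts in every library of a genotype. The pair summed to 2.05 ± 0.802 CPM in WT, 0.117 ± 0.0258 in Hmgn1-/-, 0.0396 ± 0.0687 in Hmgn2-/- and 0.423 ± 0.162 in the double knockout, or 5.71%, 1.94% and 20.6% of WT. All 2 counts of the pair in Hmgn2-/- came from replicate 3, the library that stood apart, and without it the sum was 0.

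Gm2022 and Gm5662 are predicted genes related to Eif1a, the gene of a translation initiation factor. They lie 0.379 Mb apart on chromosome 12, chr12:87895370-88274500 from the start of the former to the end of the latter. Over 435 coding bases they were 98.4% identical to each other and 94.7% (Gm2022) and 94.0% (Gm5662) identical to Eif1a. Gm5662, the most counted of the 10 genes, had 171, 80 and 110 counts in WT, 3, 6 and 2 in Hmgn1-/-, 13, 8 and 1 in Hmgn2-/-, and 42, 23 and 28 in Hmgn1-/-Hmgn2-/- mESCs. Gm2022 had 69, 36 and 44 counts in WT, 0, 1 and 1 in Hmgn1-/-, 3, 0 and 1 in Hmgn2-/-, and 14, 10 and 4 in the double knockout. Both were highest in WT and intermediate in the double knockout, without overlap with either side. The pair summed to 6.44 ± 1.08 CPM in WT, 0.196 ± 0.121 in Hmgn1-/-, 0.346 ± 0.251 in Hmgn2-/- and 1.50 ± 0.287 in the double knockout, or 3.04%, 5.37% and 23.3% of WT. The log2 ratio of Hmgn1-/- to WT was -5.67 without replicate 2 of Hmgn1-/-, in place of -5.04. That of Hmgn2-/- to WT was -4.93 without replicate 1 of Hmgn2-/-, in place of -4.22. Eif1a itself stood at 226 ± 3.78 CPM in WT and at 224, 224 and 227 CPM in the knockouts, so that the loss of reads did not extend to the widely expressed relative.

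Zfp352, a zinc finger gene read in the 2-cell embryo, lies alone at chr4:90218820-90225702. It had 27, 7 and 11 counts in WT, 1, 0 and 0 in Hmgn1-/-, 2, 0 and 1 in Hmgn2-/-, and 0, 5 and 9 in Hmgn1-/-Hmgn2-/- mESCs. Replicate 1 of WT was the highest library, and the double knockout ranged from 0 to 0.343 CPM, close to the lowest WT library at 0.381 CPM. The mean level was 0.539 ± 0.264 CPM in WT, 0.0128 ± 0.0222 in Hmgn1-/-, 0.0455 ± 0.0404 in Hmgn2-/- and 0.190 ± 0.174 in the double knockout, whose libraries overlapped those of both single knockouts.

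**Figure D1:**
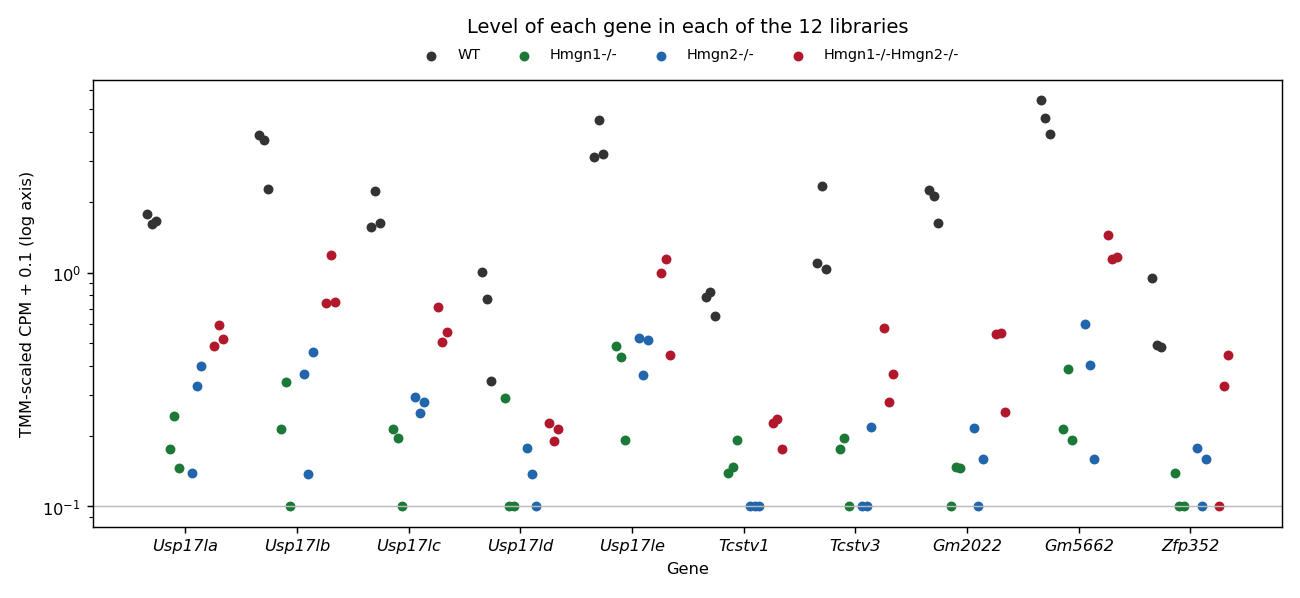
Level of each gene in each library, as TMM-scaled CPM plus 0.1 on a log axis, with 1 point per library coloured by genotype and the grey line at 0 counts. WT points lie above the knockout points of the same gene, and for 8 of the 30 values of Hmgn1-/-, 8 of the 30 of Hmgn2-/- and 1 of the 30 of Hmgn1-/-Hmgn2-/- mESCs the count was 0.

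Per kb of exon, Gm2022 stood at 4.36 ± 0.763 CPM per kb in WT. Its exon model is only its 435 coding bases, against 1840 bases for Gm5662, and it shares the most windows with other genes, so that its place is uncertain. It was followed by Gm5662 at 2.47 ± 0.418, Usp17lb at 2.04 ± 0.558, Tcstv3 at 1.79 ± 0.944 and Usp17le at 1.76 ± 0.377 CPM per kb. Those last 4 did not differ beyond their spread. Usp17lc (0.695 ± 0.149), Usp17la (0.597 ± 0.0342) and Tcstv1 (0.469 ± 0.0651) came next, and Usp17ld (0.305 ± 0.169) and Zfp352 (0.237 ± 0.116) were lowest. Only 7 of the 10 genes reached 1 CPM in any library. At these depths 3 counts in a library correspond to 0.132, 0.136 and 0.115 CPM in Hmgn1-/-, Hmgn2-/- and Hmgn1-/-Hmgn2-/- mESCs on average. At most 3 counts in every library, the floor used here, were found for 6 of the 10 genes in Hmgn1-/- (Usp17la, Usp17lc, Tcstv1, Tcstv3, Gm2022 and Zfp352), 5 in Hmgn2-/- (Usp17ld, Tcstv1, Tcstv3, Gm2022 and Zfp352) and 0 in the double knockout.

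Against WT, all 10 genes were lower without overlap between the groups in each knockout. That was so for 20.5%, 18.7% and 20.8% of all genes tested in Hmgn1-/-, Hmgn2-/- and Hmgn1-/-Hmgn2-/- mESCs. The 3 comparisons use the same WT libraries. A gene was called changed at an adjusted p under 0.01 and a log2 fold change (log2 FC) of at least 1 in size, by the quasi-likelihood test of edgeR and Benjamini-Hochberg adjustment over all genes tested. In Hmgn1-/-, 8 of the 10 genes passed the filter on low counts and 8 fell, where 5.08% of 13917 genes fell. In Hmgn2-/-, 9 passed the filter and 9 fell, where 4.38% of 14047 genes fell. In the double knockout 9 passed the filter and 8 fell, where 5% of 14128 genes fell. Usp17ld passed in no comparison and Zfp352 not in Hmgn1-/-. Genes this low in the knockouts passed the filter through their WT counts, so that these counts describe them and add little to their choice.

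Of the Usp17l genes, Usp17lb fell by 4.71 ± 0.48 (log2 FC ± SE) in Hmgn1-/-, by 3.92 ± 0.46 in Hmgn2-/- and by 2.03 ± 0.30 in Hmgn1-/-Hmgn2-/- mESCs. Its adjusted p by edgeR were 8.82e-06, 0.000185 and 0.000181. For Usp17le the log2 FC were -3.63 ± 0.36, -3.24 ± 0.30 and -2.19 ± 0.32 (edgeR adjusted p 5.87e-06, 4.24e-05 and 0.000158). Usp17la and Usp17lc lay between -4.44 and -4.11 in Hmgn1-/-, between -3.24 and -3.15 in Hmgn2-/-, and between -1.89 and -1.74 in the double knockout, and fell in each. Gm5662 fell by 4.79 ± 0.35, 3.84 ± 0.37 and 1.97 ± 0.22 (edgeR adjusted p 3.84e-07, 5.25e-05 and 1.50e-05). Without replicate 2 of Hmgn1-/- the log2 FC there was -5.56 for Usp17lb and -5.39 for Gm5662, and without replicate 1 of Hmgn2-/- it was -4.44 for Gm5662. The smallest log2 FC of each of these genes was thus in the double knockout.

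Where a genotype held 3 counts or fewer per library, the fitted log2 FC depends on a prior count, and ratios of counts scaled to library size with their exact binomial 95% intervals are the safer description. Gm2022 counts were 65.0 times higher in WT than in Hmgn1-/- mESCs (interval 17.7 to 542) and 32.7 times higher than in Hmgn2-/- mESCs (12.5 to 122). In the double knockout the ratio was 5.38 (3.57 to 8.36). Tcstv3 ratios were 21.6 (8.17 to 80.8), 43.5 (11.7 to 364) and 3.85 (2.48 to 6.17) in the same order. Its interval for the double knockout lies below that for either single knockout. These intervals pool the libraries and leave out the spread between replicates, so that they do not rank the genotypes. All 2 Tcstv3 counts in Hmgn2-/- came from replicate 3, the library that stood apart, and without it there were 0. Tcstv1 was 11.1 times (4.09 to 42.4) higher in WT than in Hmgn1-/-, at least 4.83-fold lower in Hmgn2-/- than in WT against the floor of 3 counts per library, and at a ratio of 5.72 (2.79 to 13.2) in the double knockout. For Usp17ld, not tested in any comparison, WT exceeded the knockouts by ratios of 8.37 (3.35 to 27.0), 14.1 (4.53 to 70.6) and 5.39 (2.61 to 12.5). All 5 of its counts in Hmgn1-/- came from replicate 1. Zfp352 ratios were 39.3 (6.69 to 1584) for Hmgn1-/- and 13.2 (4.23 to 66.3) for Hmgn2-/-.

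By edgeR's test Tcstv1 and Gm2022 fell in each knockout, as did Tcstv3, with adjusted p from 3.40e-06 (Gm2022 in Hmgn1-/-) to 0.00395 (Tcstv3 in the double knockout, log2 FC -2.03 ± 0.45). The Tcstv3 call in the double knockout rested on single libraries. Without replicate 2 of WT its edgeR adjusted p was 0.0178, without replicate 2 of the double knockout 0.0212 and without replicate 3 of the double knockout 0.0227, within a range of 0.000263 to 0.0227 over the alternatives. Zfp352 fell in Hmgn2-/- (log2 FC -3.54 ± 0.74, edgeR adjusted p 0.00637). It was not called without replicate 2 of WT, replicate 3 of WT or replicate 2 of Hmgn2-/- (edgeR adjusted p 0.0144, 0.0108 and 0.0314, in a range of 0.00312 to 0.0314 over the alternatives), and it did not pass the filter without replicate 1 of WT. Its log2 FC was -4.31 without replicate 1 and -2.91 without replicate 2 of Hmgn2-/-. In the double knockout the log2 FC of Zfp352 was -1.63 ± 0.66 and did not pass (edgeR adjusted p 0.0828), although its 3 libraries lay below the 3 WT libraries. Over the alternatives this value ran from -2.49 (without replicate 3 of the double knockout) to -0.95 (without replicate 1), with adjusted p by edgeR or DESeq2 from 0.0531 to 0.274. Without replicate 3 of Hmgn2-/-, 10 genes passed the filter in that comparison and 9 fell, among them the same 9 as with it. The log2 ratio of summed levels to WT was then -3.62 in place of -3.42 for the Usp17l genes, -3.81 in place of -4.22 for the Gm pair and -3.81 in place of -3.57 for Zfp352.

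**Figure D2:**
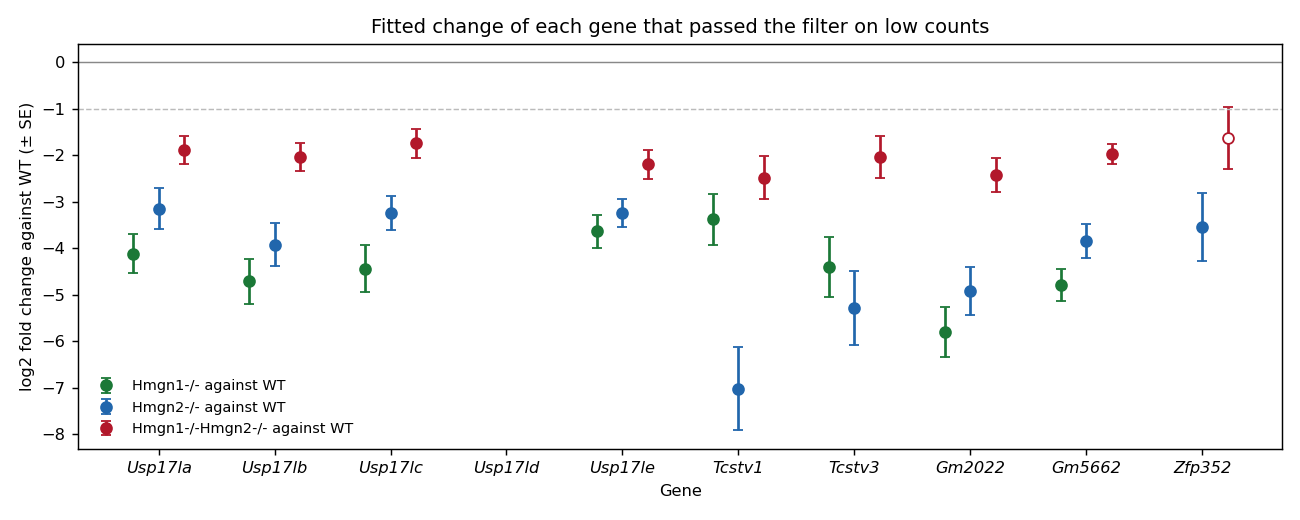
Fitted log2 FC against WT with its SE for each gene that passed the filter on low counts, with filled points where the gene was called changed and a dashed line at -1. Zfp352 in Hmgn1-/-Hmgn2-/- mESCs, at -1.63, is the open point, and the point at -7.01 for Tcstv1 in Hmgn2-/- mESCs stands for 0 counts and depends on the prior count.

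The knockouts were also compared with each other. Between Hmgn2-/- and Hmgn1-/- mESCs 0 of the 10 genes passed edgeR's filter, so that none was tested there, and 0.0586% of all genes tested were higher in Hmgn2-/-. DESeq2 and edgeR without the filter called 0 of 10, with 0 at an unadjusted p under 0.05 by either and 1 in the edgeR fit of all 12 libraries. The summed levels of all 4 families overlapped between the single knockouts. Of the 10 genes, 1 was higher in Hmgn2-/- without overlap (Usp17lc, 0.151 to 0.192 against 0 to 0.115 CPM) and 1 lower (Tcstv1, at 0 counts), where 3.93% and 4.13% of all genes tested were. Both rest on 5 counts or fewer per library. Against Hmgn1-/- mESCs, the double knockout was higher without overlap for 6 of the 10 genes, against 7.92% of all genes tested. The edgeR test had 2 genes that passed the filter and called 1 higher, where 0.35% of all genes were called higher. These 2 passed it through their counts in the double knockout, so that the count describes them only. The gene called was Gm5662, with a log2 FC of 2.81 ± 0.43 (edgeR adjusted p 0.00153), and without replicate 1 of Hmgn1-/- it was not called (2.59, edgeR adjusted p 0.0143, the highest of a range from 4.54e-05). Without replicate 2 of Hmgn1-/- its log2 FC was 3.41. Usp17lb had a log2 FC of 2.68 ± 0.59 (edgeR adjusted p 0.0282) and was not called. Over the alternatives its log2 FC ran from 2.15 (without replicate 3 of Hmgn1-/-) to 3.53 (without replicate 2) and its adjusted p from 0.00238 to 0.139. Against Hmgn2-/- mESCs, its parental line, the double knockout was higher without overlap for 8 of the 10 genes, against 5.36% of all genes. Of the 5 genes that passed the filter, edgeR called 0 higher, with 5 at an unadjusted p under 0.05 and 0 called by DESeq2, where 0.0362% of all genes were called higher. These 5 passed it mainly through their counts in the double knockout, so that the counts of genes and the direction describe them only. Their log2 FC ran from 1.05 (Usp17le) to 1.90 (Usp17lb). In summed levels the double knockout was 4.23 times Hmgn1-/- and 2.61 times Hmgn2-/- for the Usp17l genes, and 7.67 and 4.34 times for the Gm pair. Without replicate 2 of Hmgn1-/- the Gm pair was at 11.9 times Hmgn1-/-, and without replicate 1 of Hmgn2-/- at 7.12 times Hmgn2-/-. The Tcstv pair was at 3.62 times Hmgn1-/-, and no fold is given against the 2 counts in Hmgn2-/-. Without replicate 3 of Hmgn2-/-, edgeR again called 0 of the 10 genes between the double knockout and Hmgn2-/-.

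A further contrast in a fit of all 12 libraries asked whether the change in the double knockout was the sum of the changes in the single knockouts on the log2 scale. Of the 10 genes, 9 passed the filter and 8 departed from that sum upwards, as did 2.98% of 14323 genes. Were the single changes to add up, the Usp17l genes would have summed to 0.0572 CPM in the double knockout, the Gm pair to 0.0105 and the Tcstv pair to 0.00226 CPM. The measured sums were 2.59, 1.50 and 0.423 CPM. The values for the sum are below the 0.115 CPM that 3 counts per library give, and a double knockout at the level of either single knockout would also have lain above them. The contrast therefore does not show that the double knockout was above the single knockouts.

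**Figure D3:**
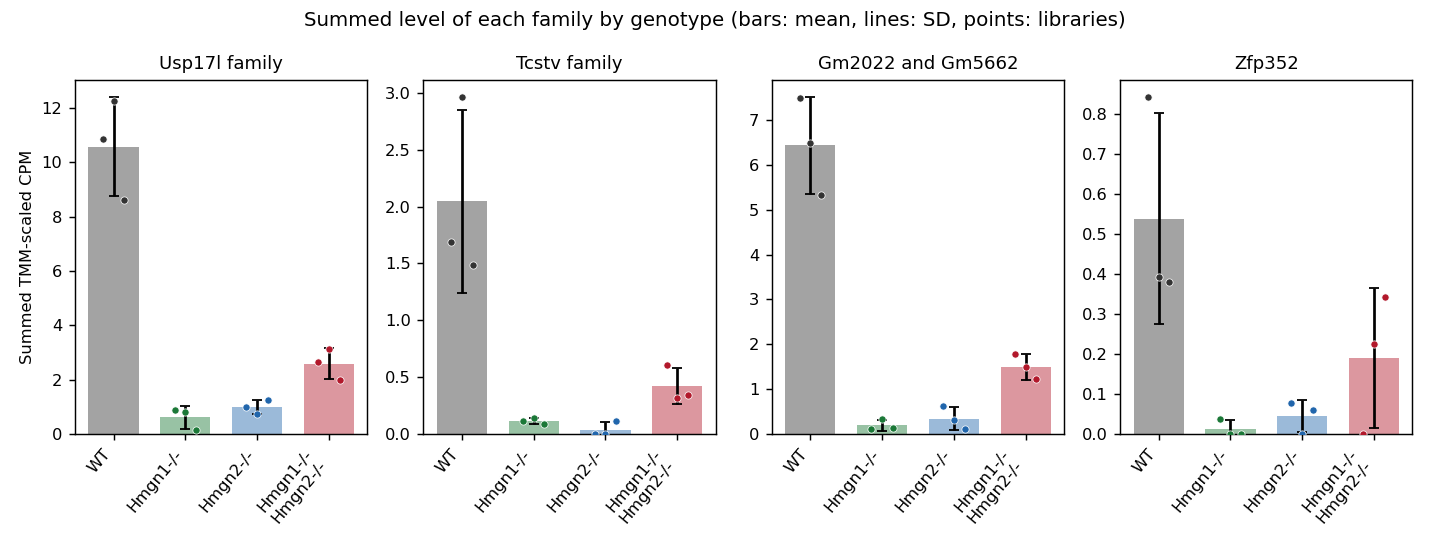
Summed TMM-scaled CPM of each family by genotype, with bars for the mean of 3 libraries, lines for the SD and points for the libraries, on a separate linear axis for each family. For the Usp17l genes the means are 10.6, 0.611, 0.990 and 2.59 CPM, and the double knockout lies between WT and the single knockouts in all panels, with overlap only for Zfp352.

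The mixture of copies within families could be read in WT and less well in the knockouts. Usp17le made up 32.5% (exact 95% interval 29.3 to 35.8) of the 816 Usp17l counts in WT, 44.2% (29.1 to 60.1) of 43 in Hmgn1-/-, 37.9% (26.2 to 50.7) of 66 in Hmgn2-/- and 29.4% (23.3 to 36.2) of 204 in the double knockout. Usp17lb made up 30.4% (27.3 to 33.7), 18.6% (8.39 to 33.4), 21.2% (12.1 to 33.0) and 29.9% (23.7 to 36.7). Every knockout interval overlapped that of WT and was wide, so that neither a shift between copies nor its absence is shown. Gm5662 made up 70.8% (66.6 to 74.7) of the 510 counts of its pair in WT, 84.6% (54.6 to 98.1) of 13 in Hmgn1-/-, 84.6% (65.1 to 95.6) of 26 in Hmgn2-/- and 76.9% (68.3 to 84.0) of 121 in the double knockout. Gm5662 was thus the larger share of its pair in every genotype. Tcstv3 made up 66.0% (57.8 to 73.5) of 150 counts in WT and 74.3% (56.7 to 87.5) of 35 in the double knockout. In Hmgn1-/- it had 4 of 8 counts and in Hmgn2-/- 2 of 2, too few to compare.

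Neighbours of the genes were followed along the chromosomes. The Tcstv stretch held 3 other tested genes, B020031M17Rik, Gm20767 and BC147527, and all 3 fell in all 3 knockouts by edgeR's test, with log2 FC from -5.62 to -1.68. They are 2-cell-like genes or near copies themselves and are counted again in the lists below. BC147527 is 88.9% and 92.2% identical to Tcstv1 and Tcstv3 in coding sequence. The nearest tested genes before the stretch, 4833420G17Rik, Hmgcs1 and Zfp131, had log2 FC between -0.27 and 0.17, and no tested gene lay beyond it. By edgeR 0 of the 3 were called in any comparison with WT, with 2, 1 and 1 at an unadjusted p under 0.05 and 0 by DESeq2. Along this side the last tested gene not called was thus Zfp131 and the first lowered gene Tcstv1, which are 101911 bases apart. Whether the stretch was lowered as a whole, rather than these genes singly, was not tested.

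Around the Gm pair, the nearest tested genes before it, Gm21319, Gm1995 and Gm2016, fell in all 3 knockouts, as did Gm5039 after it, with log2 FC from -4.65 to -1.83. Of the 6 genes flanking the pair DESeq2 called 4, 4 and 3. Gm2016 is 98.9% and 99.1% identical to Gm2022 and Gm5662, Gm5039 97.2% and 97.0%, and Gm21319 97.0% and 96.6%, and these 3 are among the near copies counted below. The next genes, Adck1 and 3200001D21Rik, were not called, with log2 FC between -0.11 and 0.39. Over 1.61 Mb the Usp17l stretch held 75 other genes with a row, of which 5, all of the Trim family, were tested. Trim12c fell in all 3 knockouts (log2 FC -2.17, -2.21 and -2.39). Trim12a fell in the double knockout (-1.19) and narrowly missed the threshold in Hmgn1-/- (-0.98, edgeR adjusted p 0.00689) and Hmgn2-/- (log2 FC just within the fold limit, edgeR adjusted p 0.0122). Trim6 (-0.01, 0.00 and 0.10), Trim34a (-0.39, -0.04 and -0.18) and Trim34b (-0.82, -0.92 and -1.04) were not called. Of the 6 flanking genes (Rrm1, Trim21, Trim68, Fam160a2, Smpd1 and Apbb1) edgeR called 0 in any comparison with WT, with 3, 2 and 2 at an unadjusted p under 0.05 and 0 by DESeq2. Trim21 had log2 FC of -0.63, -1.12 and -0.78, and without replicate 3 of Hmgn2-/- 1 of the 6 was called lower there. Around Zfp352, only Cdkn2b, 907788 bases before it, fell in all 3 knockouts (log2 FC -1.69, -1.32 and -1.40), and Mtap, Cdkn2a, Elavl2, Tusc1 and Caap1 were not called.

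**Figure D4:**
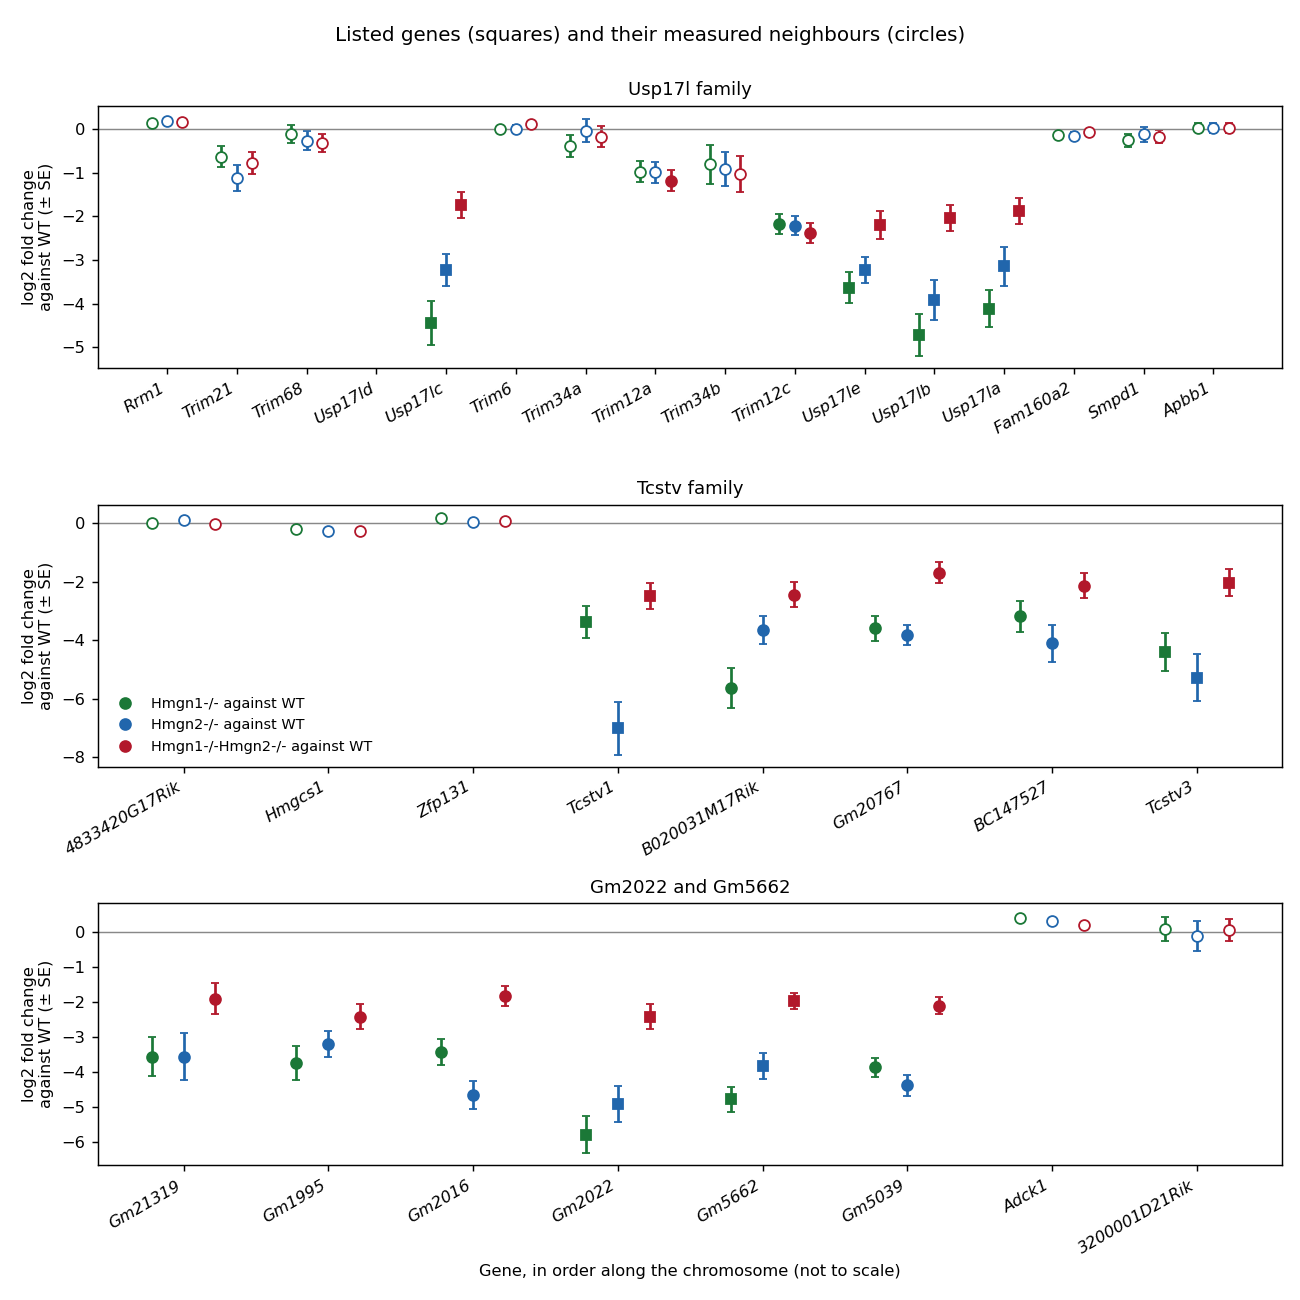
Log2 FC against WT with its SE for listed genes (squares) and their nearest tested neighbours (circles), in order along each chromosome and not to scale, filled where called changed. In the Tcstv panel the genes from Tcstv1 to Tcstv3 lie below -1.5 and those before it between -0.27 and 0.17, while in the Usp17l panel Trim6, inside the stretch, lies between -0.01 and 0.10.

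Other genes of the 2-cell-like state, taken from lists, moved in the same direction. All 6 Zscan4 genes, which encode zinc finger proteins that act on telomeres, were tested and fell in each knockout. Their median log2 FC was -4.02 in Hmgn1-/-, -3.95 in Hmgn2-/- and -1.58 in Hmgn1-/-Hmgn2-/- mESCs, where the median of all genes was 0.00, 0.01 and 0.00. Summed, they stood at 38.1, 26.1 and 25.2 CPM in the WT replicates, a mean of 29.8, and at means of 1.97, 1.86 and 9.47 CPM in the knockouts. On the list of near copies of the listed genes, 12 of 26 had a row, 9 were tested and 6 fell in each knockout, with median log2 FC of -3.43, -4.11 and -1.90. DESeq2 called 7, 7 and 5 genes of this list. They included Gm8300 (-3.96, -4.27 and -1.96) and Gm12794 (-4.61, -4.37 and -2.42). Gm12794 was not among the genes found to share an identical window with a listed gene, and its coding identity was not measured. It is therefore not shown to be a near copy, and the counts and sums of this list include it. Without the 3 widely expressed Eif1 genes of that list, the other 9 summed to 15.4 ± 3.28 CPM in WT and to 6.77%, 4.77% and 24.0% of it in the knockouts. Several of these copies share sequence with the Gm pair, so that their counts are not independent of it if reads were shared.

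Of 35 other 2-cell-like genes, 31 had a row and 14 were tested, and 11, 10 and 8 fell in Hmgn1-/-, Hmgn2-/- and Hmgn1-/-Hmgn2-/- mESCs. Their median log2 FC was -3.79, -3.38 and -1.68, and 0 rose by edgeR. Most tested genes of this list, like the Zscan4 genes and the low near copies, passed the filter mainly through their WT counts. The counts and medians of these lists therefore describe them and add little to their choice. Sp110, for example, had 43, 39 and 36 counts in WT and at most 10 in any knockout library, and Tmem92 had 68, 25 and 31 and at most 15. Obox6 did not form the steps, with 2, 0 and 1 counts in Hmgn1-/-, 2, 0 and 0 in Hmgn2-/- and 0, 2 and 0 in the double knockout. At so few counts its log2 FC of -3.59, -4.10 and -4.28 depend on a prior count. Gm15455 did not form them either, at 1.77 CPM in WT and 0.797, 0.891 and 0.905 CPM in the knockouts. Pramef8, the most abundant gene of this list at 28.1 CPM in WT, was not called (-0.08, -0.18 and -0.20). Without replicate 3 of Hmgn2-/-, 6 Zscan4 genes, 7 near copies and 11 other genes fell in that genotype, in place of 6, 6 and 10.

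Among genes known to switch the state on or off, those that passed the filter were not called, while Dux, which did not pass it, had lower levels in each knockout without overlap with WT. Of 7 activators 6 had a row and 5 were tested, and edgeR called 0 in the comparisons with WT, with 1, 0 and 3 at an unadjusted p under 0.05 and 0 by DESeq2. Their median log2 FC was 0.09, 0.12 and 0.10, and their most abundant gene Dppa4 stood at 173 CPM in WT and 208, 197 and 196 CPM in the knockouts. Dux, the transcription factor gene read before the others, was too low to be tested. It had 12, 5 and 9 counts in WT, 4, 0 and 1 in Hmgn1-/-, 0, 1 and 1 in Hmgn2-/-, and 6, 1 and 3 in Hmgn1-/-Hmgn2-/- mESCs. Its WT libraries lay above those of each knockout in CPM, and the knockouts overlapped each other. All 24 repressors were tested and edgeR called 0, with 6, 3 and 5 at an unadjusted p under 0.05 and 0 by DESeq2. Their median log2 FC was -0.04, -0.01 and -0.02, and Trim28, the most abundant, stood at 3379 CPM in WT and 3210, 3086 and 3080 CPM in the knockouts. Within the fold limit some repressors shifted, in both directions. Ehmt2 stood at 312 CPM in WT and 361, 400 and 398 CPM in the knockouts, and Smchd1 at 78.2 and 90.6, 97.3 and 97.8 CPM. Uhrf1 went the other way, at 611 CPM in WT and 515, 520 and 510 CPM in the knockouts.

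Markers of other cell types moved with the result. Of 8 primitive endoderm genes, all tested, 6 rose in Hmgn1-/-, 6 in Hmgn2-/- and 8 in Hmgn1-/-Hmgn2-/- mESCs, where 0.898%, 0.776% and 1.3% of all genes tested rose. Their median log2 FC was 2.65, 2.95 and 4.19. Their summed levels were 13.6, 15.8 and 16.5 CPM in the WT replicates, 121, 91.6 and 97.9 in Hmgn1-/-, 147, 127 and 90.5 in Hmgn2-/-, and 306, 303 and 284 CPM in the double knockout. This list was thus highest in the double knockout, where the 2-cell-like genes were intermediate. Its most abundant gene was Cubn, at 2.81, 36.2, 40.3 and 114 CPM, and 0 of its genes were at 0 in any genotype. Of 8 trophoblast genes 7 were tested and 5 fell in each knockout, where 5.08%, 4.38% and 5% of all genes tested fell. They summed to 296, 343 and 477 CPM in WT, 54.6, 47.5 and 77.7 in Hmgn1-/-, 78.3, 81.2 and 120 in Hmgn2-/-, and 70.2, 80.5 and 92.6 CPM in the double knockout. Their most abundant gene was Krt8 (213 CPM in WT) and 0 were at 0. Together with Krt18 (136 CPM in WT), it made up most of these sums. Cdx2, at 1.07 CPM in WT and 0.741, 1.05 and 1.04 CPM in the knockouts, was not called. Eomes, at 9.73 CPM in WT and 6.18, 7.04 and 6.07 CPM in the knockouts, was not called either. The single and the double knockouts overlapped for this list. Of 8 fibroblast genes 4 were tested and 3 fell in each knockout, beside the same shares of all genes. They summed to 47.8, 42.1 and 48.6 CPM in WT, 23.8, 20.9 and 21.8 in Hmgn1-/-, 20.7, 21.1 and 19.4 in Hmgn2-/-, and 23.0, 24.9 and 22.5 CPM in the double knockout, with Fbln1 most abundant (27.3 CPM in WT). Lum was at 0 in all 4 genotypes and Postn in the single knockouts. Without replicate 3 of Hmgn2-/-, 6 primitive endoderm genes rose and 5 trophoblast and 3 fibroblast genes fell there, the same genes as with it. The part of these cell types in the result was not tested.

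In the remaining marker lists few genes were called, and some others shifted by less than the fold limit. Of 8 blood cell genes 3 were tested and edgeR called 0, with 2 at an unadjusted p under 0.05 in each comparison with WT and 0, 0 and 1 by DESeq2. Laptm5, the most abundant, was lower without overlap, at 92.3 CPM in WT and 57.1, 55.6 and 60.6 CPM in the knockouts. Its log2 FC of -0.70, -0.73 and -0.61 missed the fold limit. Coro1a went the other way, at 10.0 CPM in WT and 13.3, 15.4 and 14.5 CPM in the knockouts, without overlap. Il7r and Tyrobp were at 0 in every genotype. Of 9 germ cell and oocyte genes 4 were tested and 1, 2 and 1 fell, Zp3 in each (log2 FC -1.20, -1.34 and -1.49) and Dazl in Hmgn2-/-. Their most abundant gene Ddx4 was higher without overlap, at 28.0 CPM in WT and 40.4, 48.6 and 52.6 CPM in the knockouts, with log2 FC of 0.52, 0.80 and 0.90, below the fold limit. Without replicate 3 of Hmgn2-/-, 1 of 4 tested blood cell genes fell there and 2 germ cell and oocyte genes as before.

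The genes whose levels followed each family most closely were sought by Pearson's r of log2 (CPM + 0.1) over the 12 libraries among 14314 genes. The libraries fall into genotypes, so that r mainly describes the steps between them. For the Gm pair they were Zscan4c (0.987), BC080695 (0.970), Gm4858 (0.969), Gm13119 (0.968) and Tmem92 (0.968). For the Tcstv pair they were Gm8300 (0.964), Dmkn (0.961), Gm2016 (0.950), Gm5039 (0.947) and Kcnu1 (0.945). The Usp17l sum was followed by Sord (0.982), Gm8994 (0.964), Gm13119 (0.960), Gm20767 (0.951) and Gm13109 (0.951). Sord stood at 31.8 CPM in WT and at 13.0, 14.2 and 21.4 CPM in the knockouts. Zfp352 was followed by Vax2 (0.926), Ifi35 (0.908), Emilin2 (0.907) and Gm21319 (0.900).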

How the data were processed

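The authors deposited counts of reads per gene for 12 poly-A RNA-Seq libraries of mESCs, aligned by them to mm10 (GRCm38) with STAR. The counting program and its handling of reads with several matches are not stated. Genotype and replicate came from the labels, with 3 libraries per genotype and 17337908 to 31448468 counts per library. Levels are CPM scaled by TMM over the 12 libraries (factors 0.970 to 1.02). Pairs of genotypes were compared in fits of their 6 libraries with edgeR 4.0.16 and limma 3.58.1 in R 4.3.3, with the default filter on low counts, the quasi-likelihood test and Benjamini-Hochberg adjustment over all genes tested. Departure from additivity was a contrast in a fit of all 12 libraries. Family sums have no test. The p-values measure the spread of these samples only. Steps were tested on simulated data, in which only genes with higher counts were changed. That does not test them at counts as low as those of most listed genes in the knockouts. Intervals and floors cover counting error only, since no molecular identifiers are described.

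The alternatives were DESeq2 1.42.0, RLE scaling, library totals for sums, no filter beyond 1 count, an adjusted p under 0.05, no fold limit, all 12 libraries in a single fit, replicate number as a block, and each library left out in turn. Pairing by replicate number was checked by correlating residuals of libraries with the same number over 14323 genes. For the double knockout against WT these were 0.170, 0.121 and 0.104, all above 0.1. The fit with the replicate block is therefore given beside the unpaired fit in the closing part. The strongest correlation, 0.313, was for replicate 1 of the double knockout against Hmgn2-/-, with 0.0480 and 0.246 for replicates 2 and 3. There the block called 32 of all genes in place of 6, and 0 of the listed genes. Against Hmgn1-/- it called 95 of all genes in place of 70.

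The members and lists were chosen with earlier results of these data known. The text names all 10 members, Hmgn1 and Hmgn2, every list gene called in a comparison with WT where an example is given, the most abundant gene of each list, the 5 genes most like each family (1 is not reported here) and the nearest 3 tested genes on each side of each family. The lists were the Zscan4 family, near copies of members, other 2-cell-like genes, activators and repressors of the 2-cell-like state, pluripotency, primitive endoderm, trophoblast, fibroblast, blood cells, and germ cells and oocyte. Obox6, Gm15455, Sp110, Tmem92, Gm8300, Gm12794, Sord, Klf4, Esrrb, Nanog, Coro1a, Cdx2, Eomes, Ehmt2, Smchd1 and Uhrf1 were singled out after their values were seen. Gene models came from GENCODE M21, and gene positions and promoters from RefSeq for GRCm38.p6, read with Python 3.11.15 and Biopython 1.88. Repeats and the study's other experiments were not analysed.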

Additional observations from a re-analysis of the deposited data

Results flagged for a closer look

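For 8 of the 10 genes the change in the double knockout differed from the sum of the changes in the single knockouts, by edgeR's quasi-likelihood test of that difference with adjustment over all 14323 genes tested. On the log2 scale the difference was 8.30 ± 0.99 (SE) for Gm2022 and 6.66 ± 0.58 for Gm5662, with edgeR adjusted p of 6.04e-05 and 3.57e-06. It was 7.92 ± 1.26 for Tcstv1 and 7.66 ± 1.22 for Tcstv3 (edgeR adjusted p 0.00102 and 0.000658). Among the Usp17l genes it was 6.61 ± 0.81 for Usp17lb, 5.94 ± 0.68 for Usp17lc, 5.39 ± 0.69 for Usp17la and 4.68 ± 0.62 for Usp17le, with edgeR adjusted p from 4.21e-05 to 0.000144. Zfp352, at 6.78 ± 1.62, did not pass (edgeR adjusted p 0.0116), and Usp17ld did not pass the filter. The sum itself lay below the 0.115 CPM that 3 counts per library give for each family, and a double knockout at the level of either single knockout would also have lain above it. The adjusted p therefore do not show that the double knockout was above the single knockouts, and the sizes are given as description. The value for Tcstv1 depends on a prior count, since Hmgn2-/- had 0 counts in every library, and the sizes for Tcstv3 and Gm2022 lean on counts of at most 3 per library in the single knockouts. Without replicate 1 of Hmgn1-/- and replicates 1 and 2 of Hmgn2-/- in turn, Gm2022 was at 7.70, 9.45 and 7.66. Tcstv3 was at 7.06, 7.05 and 10.5 without replicates 1, 2 and 3 of Hmgn2-/-. The 10.5 stands for 0 counts in the Hmgn2-/- libraries left and is set by the prior count. Without replicate 2 of Hmgn1-/- Usp17lb was at 7.45 and Gm5662 at 7.25, and Gm5662 was at 7.26 without replicate 1 of Hmgn2-/-. What sets the level in the double knockout was not tested.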

How the results depend on the processing

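The direction of every tested change held under all alternatives run. Against WT, 331 of 337 log2 FC of the listed genes kept their side of the threshold over DESeq2, RLE scaling, no filter beyond 1 count, an adjusted p under 0.05, no fold limit, all 12 libraries in a single fit, the replicate block and each library left out. The other 6 were no longer called, namely Zfp352 in Hmgn2-/- and Tcstv3 in Hmgn1-/-Hmgn2-/- mESCs, each when any of 3 libraries was left out. Zfp352 also did not pass the filter without replicate 1 of WT, which is not among the 337. A called gene cannot lose its call at the looser limits, an adjusted p under 0.05 or no fold limit. Those values kept their side by construction, here and in the counts of this kind below. All 94 values of family sums that could be computed stayed within the spread of the replicates. With 3 libraries per genotype, leaving out 1 can hardly move a mean beyond that spread, so this count says little about robustness. No log2 ratio exists where a sum fell to 0, for the Tcstv pair without replicate 3 of Hmgn2-/- and for Zfp352 without replicate 1 of Hmgn1-/-. For the listed genes DESeq2 called 9, 10 and 8 lower in Hmgn1-/-, Hmgn2-/- and Hmgn1-/-Hmgn2-/- mESCs, and edgeR without the filter called 10, 10 and 9, in place of 8, 9 and 8. The genes gained were Usp17ld and Zfp352. With the replicate block, a paired fit, 8, 9 and 8 were called lower, as in the unpaired fit. For the double knockout against Hmgn1-/- mESCs, 2 genes in place of 1 were called higher with no filter beyond 1 count, 2 at an adjusted p under 0.05 and 2 with the replicate block, the second each time being Usp17lb, and 0 to 1 with a library left out. The cause was not tested. Between the knockouts, 85 of 89 log2 FC kept their side. The departures from additivity kept theirs in 140 of 143, and the other 3, all of Zfp352, passed where they had not. For these, and for folds of family sums between knockouts, leaving out libraries was added after seeing the data. In the contrast 8 to 9 genes were then called. Sizes moved more than calls. Without replicate 1 of Hmgn1-/- the log2 FC of Gm2022 was -5.19 in place of -5.80, and without replicate 2 those of Usp17lb and Gm5662 were -5.56 and -5.39 in place of -4.71 and -4.79. In Hmgn2-/-, Gm2022 was at -6.06 without replicate 1 and -4.27 without replicate 2 in place of -4.92, Gm5662 at -4.44 without replicate 1 in place of -3.84, and Tcstv3 at -4.68, -4.67 and -8.13 without replicates 1, 2 and 3 in place of -5.28. The -8.13 stands for 0 counts in the Hmgn2-/- libraries left and is set by the prior count. The log2 ratio of the Gm pair was -5.67 without replicate 2 of Hmgn1-/- in place of -5.04, and -4.93 without replicate 1 of Hmgn2-/- in place of -4.22. That of Zfp352 ran from -2.25 to -0.92 in the double knockout, without its replicates 3 and 1, in place of -1.51. For list genes against WT, 1842 of 1909 log2 FC kept their side, 44 were no longer called and 23 were newly called.

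Depth limits all of this. The single knockouts held 65 and 97 counts of the 10 genes over 3 libraries each, so that folds against WT have wide intervals, and none of the 10 genes passed the filter between the single knockouts. The split of reads between near-identical copies is uncertain. Each knockout genotype is a single clone, the double knockout descends from the Hmgn2-/- line, and all comparisons with WT use the same 3 libraries.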
